A study of Homo sapiens with 4 samples.

Results

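Transcripts of the insulin and insulin-like growth factor (IGF) system were followed through 4 RNA-seq libraries of cultured cells. The set is fixed by name: 5 IGF binding proteins (IGFBP1, IGFBP2, IGFBP3, IGFBP4 and IGFBP6), 3 receptors (IGF1R, INSR and IGF2R) and 2 insulin receptor substrates (IRS1 and IRS2). Each was found through its Entrez identifier, and 9 of the 10 had a row, out of 17963 genes listed in at least 1 table. IGFBP2 had no row in the tables used here and is not analysed here. All cells carry the label HepG2, a line derived from a human liver tumour that is widely used in place of hepatocytes. A library labelled JFK came from cells transfected with a FLAG-tagged JFK plasmid and was compared with cells given the vector. JFK is an older name of FBXO42, an F-box protein that picks substrates for a ubiquitin ligase. Another library came from cells given ING5 siRNA, compared with control siRNA, where ING5 is a histone-reading subunit of acetyltransferase complexes. Each group is 1 library, and neither the promoter that drives the plasmid nor the time after transfection is given in the sources used here.

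IGFs circulate and act in tissues bound to binding proteins, which lengthen their lifetime and set how much reaches the receptors. IGF1R and INSR are closely related tyrosine kinase receptors that dock and phosphorylate IRS1 and IRS2, and these in turn recruit PI3-kinase and activate AKT. IGF2R has no kinase: it is also the cation-independent mannose 6-phosphate receptor, which carries lysosomal enzymes and removes IGF2. In liver, insulin lowers IGFBP1 and IRS2 transcription by keeping FOXO factors out of the nucleus, so both genes are known as readouts of hepatic insulin action.

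With 1 library per group, no difference had a replicate check and no test was made. A fold is the ratio of counts after TMM scaling, with 0.5 added before taking log2. Beside it stands an exact 95% interval (Clopper-Pearson, on the split of both libraries' reads), which covers counting error only. Genes averaging 20 or more normalised counts are called measured, and 1.5-fold is the size used to count genes as apart. Assigned reads came to 7237325 in the library labelled JFK, 7179585 in Vector, 9030075 in ING5 siRNA and 9196979 in Control siRNA. ING5 had 81 counts in ING5 siRNA and 144 in Control siRNA (log2 fold −0.81, interval −1.23 to −0.41). FBXO42 had 115 counts in the library labelled JFK against 116 in Vector, so its transcript did not stand higher where the label names overexpression. The cells' identity was read from fixed markers. Of 10 hepatocyte markers, 2 reached 20 counts in every library, HNF4A with 51 to 91 counts and the urea-cycle gene CPS1 with 22227 to 46771. SERPINA1 had 3 to 7 counts and FGB had 7 to 15.4. APOA1, APOB and AFP had at most 2 where listed, and ALB, TTR and TF had no row. Most hepatocyte markers thus do not bear out the HepG2 label, and whether the label is right was not tested. Epithelial keratin genes were high, with KRT8 at 10344 to 22309 counts and KRT18 at 5764 to 9131. EPCAM, the remaining marker of the epithelial list, had only 8 to 73. The basal epithelial and placental lists had 1 high gene each: KRT17 of the basal epithelial list had 2299 to 27539 counts, while TP63 had 4 to 30, KRT14 had 1 to 11.79 and KRT5 had at most 1. ALPP, for a placental phosphatase, had 10851 to 26762, while GCM1 had 0 to 7.04 and CGB3 had no row.

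Levels of the 9 genes are given first as counts scaled to each library's assigned reads (CPM). IGFBP3, the main IGF carrier of serum, was at 212 CPM in the library labelled JFK, 190 in Vector, 703 in ING5 siRNA and 623 in Control siRNA. IGFBP4, which withholds IGF from its receptor until a protease cuts it, was at 208 CPM in the library labelled JFK, 206 in Vector, 88.1 in ING5 siRNA and 117 in Control siRNA. IGFBP6, whose binding favours IGF2, was at 124 CPM in the library labelled JFK, 87.2 in Vector, 9.75 in ING5 siRNA and 12.6 in Control siRNA. IGFBP3 was thus high where IGFBP6 was low, and the split ran between the plasmid pair and the siRNA pair. IGFBP1, the insulin-regulated binding protein of liver, was low throughout, at 11.1 CPM in the library labelled JFK, 12.0 in Vector, 6.42 in ING5 siRNA and 3.26 in Control siRNA. Among receptors, IGF2R lay between 316 and 412 CPM, IGF1R between 64.8 and 99.5 and INSR between 28.9 and 43.7. IRS2 lay between 101 and 123 CPM, while IRS1 had 54 counts in the library labelled JFK, 47 in Vector and 25 in each siRNA library.

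**Figure D1:**
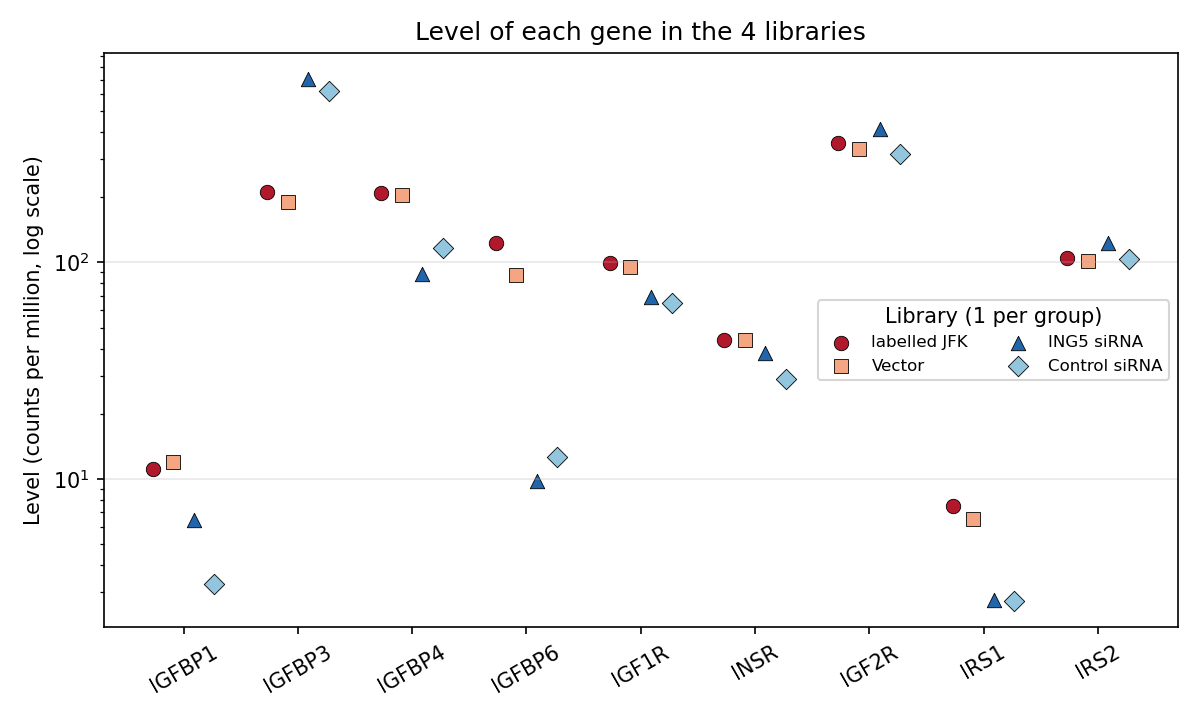
Level of each gene in CPM on a log axis, with 1 point per library (circle, labelled JFK; square, Vector; triangle, ING5 siRNA; diamond, Control siRNA) and no error bars because each group is 1 library. IGFBP6 lies at 87.2 CPM or more in the plasmid pair and at 12.6 CPM or less in the siRNA pair, whereas IRS2 stays between 101 and 123 CPM.

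Promoters are shown for IGFBP3, IGFBP4, IGFBP6 and IRS1, whose levels split between the plasmid and siRNA experiments, and for IRS2, which held its level and is a known FOXO target. They come from RefSeq, build GRCh38.p14, run 5′ to 3′ along the gene from 250 bases before the annotated start to 50 after it, and were matched for 9 of the 10 genes. IGFBP1 had no entry. Capitals mark FOXO motifs GTAAACA and CAAAACA, the GC box GGGCGG and the TATA box TATAAA, each sought on both strands. GC and TATA boxes and the IRS2 promoter were chosen after the values were seen.

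IGFBP3, chr7:45921223-45921522, minus strand: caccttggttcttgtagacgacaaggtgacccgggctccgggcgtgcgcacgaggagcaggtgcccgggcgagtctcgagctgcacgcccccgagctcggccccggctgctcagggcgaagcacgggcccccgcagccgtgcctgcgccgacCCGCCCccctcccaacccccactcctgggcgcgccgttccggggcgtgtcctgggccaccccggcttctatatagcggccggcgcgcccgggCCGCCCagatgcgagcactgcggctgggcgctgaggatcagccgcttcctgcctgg

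IGFBP4, chr17:40443200-40443499, plus strand: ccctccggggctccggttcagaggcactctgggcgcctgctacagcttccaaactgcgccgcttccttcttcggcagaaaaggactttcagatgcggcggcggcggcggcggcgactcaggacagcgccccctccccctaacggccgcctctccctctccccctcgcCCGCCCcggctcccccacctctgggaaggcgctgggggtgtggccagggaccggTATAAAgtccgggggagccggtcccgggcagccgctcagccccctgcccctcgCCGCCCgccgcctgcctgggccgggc

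IGFBP6, chr12:53097417-53097716, plus strand: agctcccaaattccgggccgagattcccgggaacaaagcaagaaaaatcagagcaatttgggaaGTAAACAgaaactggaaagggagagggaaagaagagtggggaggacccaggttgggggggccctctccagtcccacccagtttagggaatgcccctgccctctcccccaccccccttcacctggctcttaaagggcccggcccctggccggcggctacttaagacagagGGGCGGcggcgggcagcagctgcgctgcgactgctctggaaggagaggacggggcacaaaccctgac

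IRS1, chr2:226799771-226800070, minus strand: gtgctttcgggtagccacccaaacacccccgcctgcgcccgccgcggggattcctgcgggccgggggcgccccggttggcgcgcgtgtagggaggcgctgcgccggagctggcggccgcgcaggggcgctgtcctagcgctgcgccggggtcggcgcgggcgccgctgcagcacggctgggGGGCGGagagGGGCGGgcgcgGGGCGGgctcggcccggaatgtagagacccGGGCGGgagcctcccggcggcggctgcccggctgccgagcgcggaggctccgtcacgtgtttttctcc

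IRS2, chr13:109786534-109786833, minus strand: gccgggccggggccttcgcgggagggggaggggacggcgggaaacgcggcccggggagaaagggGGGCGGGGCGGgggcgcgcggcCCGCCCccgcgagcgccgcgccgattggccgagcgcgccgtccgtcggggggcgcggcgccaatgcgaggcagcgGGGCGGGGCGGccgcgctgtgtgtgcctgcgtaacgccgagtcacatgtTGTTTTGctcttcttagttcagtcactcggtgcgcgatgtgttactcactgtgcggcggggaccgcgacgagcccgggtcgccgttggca

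GTAAACA begins at position −186 of the IGFBP6 promoter, counted from the annotated start, and is held by 3.42% of 35097 promoters of this length. IRS2 holds CAAAACA from −40 to −34 on the strand opposite to the letters shown, a motif found in 4.92% of promoters. Neither FOXO motif is in the IGFBP3, IGFBP4 or IRS1 window, nor in those of IGFBP2, IGF1R, INSR and IGF2R, which are not shown. The IGFBP4 window holds TATAAA at −29, as 11.5% of promoters do. GC boxes, held by 44.9% of promoters, occur in all 5, and in IRS2 those at −186 and −181 overlap by a base, as do those at −89 and −84. These matches describe letters and say nothing of binding.

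Per length, the order of the genes could be compared within each library. In the library labelled JFK, IGFBP6 led at 128 FPKM, before IGFBP4 at 92.2 and IGFBP3 at 80.2. In Vector, IGFBP4 was at 91.6 FPKM and IGFBP6 at 90.8, and IGFBP3 followed at 72.4. In ING5 siRNA, IGFBP3 led at 264 RPKM and IGF2R came next at 44.9, ahead of IGFBP4 at 38.9. In Control siRNA, IGFBP3 was at 236 RPKM, IGFBP4 at 52.0 and IGF2R at 34.8. IRS1 was last in all 4 libraries, from 0.311 to 0.84. The per-length ratio of IRS2 to IRS1 was 17.6 in the library labelled JFK (interval 13.3 to 23.6) and 19.3 in Vector (14.4 to 26.5). It was 55.2 in ING5 siRNA (37.2 to 85.7) and 47.6 in Control siRNA (32.1 to 74.0), so IRS2 was the more abundant substrate transcript everywhere. IGF1R exceeded INSR per length by 1.83 times in the library labelled JFK (interval 1.60 to 2.10), 1.74 in Vector (1.52 to 2.001), 1.46 in ING5 siRNA (1.28 to 1.67) and 1.81 in Control siRNA (1.56 to 2.09). Intervals of this ratio overlap within each pair.

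Cells given ING5 siRNA had less ING5 transcript than cells given control siRNA, and the 9 genes were compared between them. IGFBP1 stood farthest above control, while IGFBP4 and IGFBP6 stood below it, and IGF2R and INSR were each about 1.3-fold higher. IGFBP1 had 58 counts in ING5 siRNA and 30 in Control siRNA, a fold of 1.94 (interval 1.24 to 3.15), which ranks 109 of 11634 measured genes from the highest. It is the single member past 1.5-fold, on the fewest reads of any binding protein, and with a mean count of at least 100 it is not measured. Past 1.5-fold in the upward direction lay 1 of the 9 members and 4.01% of all measured genes, and in the downward direction 0 of 9 and 4.4%. In bulk RNA, a difference in the share of expressing cells and a difference in RNA per cell cannot be told apart.

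Other binding proteins differed less under ING5 siRNA. IGFBP4 had 796 counts in ING5 siRNA and 1074 in Control siRNA (log2 fold −0.42, interval −0.55 to −0.28). IGFBP6 had 88 counts in ING5 siRNA against 116 in Control siRNA (−0.38, interval −0.80 to 0.03), a difference within counting error. IGFBP3 had 6352 counts in ING5 siRNA against 5726 in Control siRNA (0.17, interval 0.11 to 0.22), a small excess that its read number separates from counting error alone.

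Receptors lay at or above control. IGF2R had 3718 counts in ING5 siRNA and 2908 in Control siRNA (log2 fold 0.37, interval 0.30 to 0.44). INSR had 345 in ING5 siRNA against 266 in Control siRNA (0.39, interval 0.16 to 0.63). IGF1R, the third receptor, had 626 in ING5 siRNA against 596 in Control siRNA (0.09, interval −0.08 to 0.25). The per-length ratio of IGF2R to IGF1R was 7.34 in ING5 siRNA (interval 6.74 to 8.005) and 6.03 in Control siRNA (5.52 to 6.60), intervals that do not meet. Human IGF2R and IGF1R both have antisense transcripts, and strand-aware counting is not stated, so reads of either strand may be included. Of the substrates, IRS2 had 1108 counts in ING5 siRNA and 955 in Control siRNA (0.23, interval 0.10 to 0.36), and IRS1 had 25 in both (0.02, interval −0.84 to 0.88). At this depth the interval of IRS1 runs from 0.557-fold to 1.84-fold, so a difference within it was not detectable.

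Over the 9 members the median log2 fold was 0.17 under ING5 siRNA, against −0.01 over all measured genes, and 7 lay above 0 where 48.6% of all genes did. Counting intervals were wholly above 0 for 5 of 9 members and for 18.3% of all genes, and wholly below 0 for 1 of 9 and for 20.6%. Interval width follows read number, so genes with many reads clear 0 at small folds.

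In the plasmid pair IGFBP6 stood highest among the members, with 894 counts in the library labelled JFK against 626 in Vector, or 1.45-fold (interval 1.31 to 1.61). It ranks 231 of 12107 measured genes from the highest and lies just under the 1.5-fold mark. None of the 9 members was 1.5-fold apart, where 1.5% of measured genes lay that far up and 2.07% that far down.

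IGFBP3 had 1535 counts in the library labelled JFK against 1366 in Vector (log2 fold 0.19, interval 0.09 to 0.30). IGF2R had 2583 in that library against 2393 in Vector (0.13, interval 0.05 to 0.22). Both are differences of under 1.2-fold. Intervals of the other 6 members hold 0. IGFBP1 had 80 counts in that library against 86 in Vector (−0.08, interval −0.54 to 0.38), and IGFBP4 had 1508 in that library against 1478 in Vector (0.05, interval −0.05 to 0.16). Neither stood apart from Vector by more than counting error. The kinase receptor genes were as close, with IGF1R at 720 in that library against 681 in Vector (0.10, interval −0.05 to 0.26) and INSR at 316 in that library against 314 in Vector (0.03, interval −0.20 to 0.26). IRS1, the scarcer substrate, had 54 in that library against 47 in Vector (0.22, interval −0.37 to 0.82). IRS2 had 762 in that library against 728 in Vector (0.09, interval −0.06 to 0.24). INSR turns to −0.01 by FPKM. The members' median was 0.10, against 0.00 over all measured genes, and 8 of 9 lay above 0 where 50.5% of all genes did. Intervals were wholly above 0 for 3 of 9 members and for 14.3% of all genes, and wholly below 0 for 0 of 9 and for 11.2%.

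**Figure D2:**
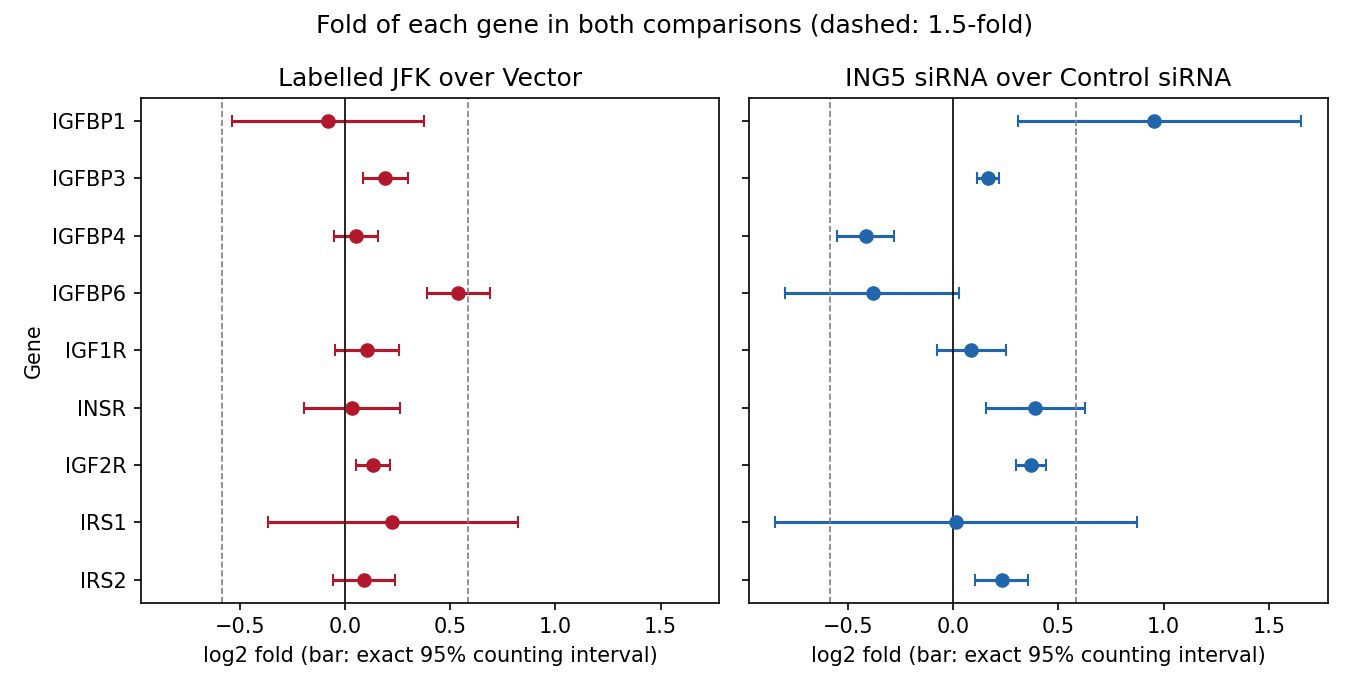
Log2 fold of each gene in the library labelled JFK over Vector (left) and in ING5 siRNA over Control siRNA (right), with exact 95% counting intervals as bars and dashed lines at 1.5-fold. IGFBP6 leads on the left at 0.54, and IGFBP1 leads on the right at 0.96 with the wide interval that 58 and 30 counts give.

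Markers of other cell types were read in both pairs, and not every list is given here. KRT8 was at 3083 CPM in the library labelled JFK against 2419 in Vector. KRT18 went the other way, at 853 CPM in that library against 1272 in Vector. In ING5 siRNA both were lower than in Control siRNA, KRT8 at 1146 CPM against 1238 and KRT18 at 638 against 872. EPCAM had 8 counts in the library labelled JFK against 15 in Vector, and 73 in ING5 siRNA against 47 in Control siRNA. The 4 basal epithelial markers summed to 3811 CPM in the library labelled JFK against 2928 in Vector, of which KRT17 alone gave 3805 CPM in the library labelled JFK against 2924 in Vector, while KRT5 had no row there. Under ING5 siRNA they summed to 255 CPM, against 295 in Control siRNA, and KRT5 had 1 count in ING5 siRNA and 0 in Control siRNA. The 3 endothelial markers summed to 12.0 CPM in ING5 siRNA and 26.1 in Control siRNA, of which CDH5 gave 9.63 in ING5 siRNA and 24.4 in Control siRNA. PECAM1 went the other way, with 21 counts in ING5 siRNA and 16 in Control siRNA, and KDR had no row there. The 4 fibroblast markers summed to 23.7 CPM in ING5 siRNA, where COL1A2 was at 0, and to 28.9 in Control siRNA, and PDGFRA had no row there. Most of the sum was COL1A1, at 19.6 CPM in ING5 siRNA and 20.7 in Control siRNA. DCN differed more, with 37 counts in ING5 siRNA and 74 in Control siRNA. Of the 3 placental markers ALPP gave nearly the whole sum, 3698 CPM in the library labelled JFK, 3183 in Vector, 1202 in ING5 siRNA and 1591 in Control siRNA, with GCM1 at 7.04 counts or fewer and CGB3 without a row. Their part in the differences of IGFBP1, IGFBP4 and IGFBP6 was not tested.

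The make-up of the binding protein reads was then compared across libraries, as the share each gene takes of the reads of the 4 binding proteins with a row. IGFBP3 took 38.2% (exact 95% binomial interval 36.7 to 39.7) in the library labelled JFK against 38.4% (36.8 to 40.0) in Vector. IGFBP6 took 22.3% (21.0 to 23.6) in the library labelled JFK against 17.6% (16.4 to 18.9) in Vector, and IGFBP4 took 37.5% in the library labelled JFK against 41.6% in Vector. In the plasmid pair the share of IGFBP6 was thus larger and that of IGFBP4 smaller, while the shares of IGFBP3 lay within each other's intervals. A share depends on the reads of all 4 genes. IGFBP4 itself was not lower, with 1508 counts in the library labelled JFK against 1478 in Vector (log2 fold 0.05). In ING5 siRNA, IGFBP3 took 87.1% (86.3 to 87.8), against 82.4% (81.5 to 83.3) in Control siRNA. IGFBP4 took 10.9% (10.2 to 11.7) in ING5 siRNA and 15.5% (14.6 to 16.3) in Control siRNA. IGFBP1 took 0.795% (0.604 to 1.03) in ING5 siRNA and 0.432% (0.292 to 0.616) in Control siRNA. No molecular identifiers are stated, and reads copied by PCR are not independent molecules, so all intervals cover counting error only. Longer transcripts give more reads, and per length IGFBP6 made up 41.7% in the library labelled JFK, 34.7% in Vector, 3.11% in ING5 siRNA and 4.25% in Control siRNA.

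**Figure D3:**
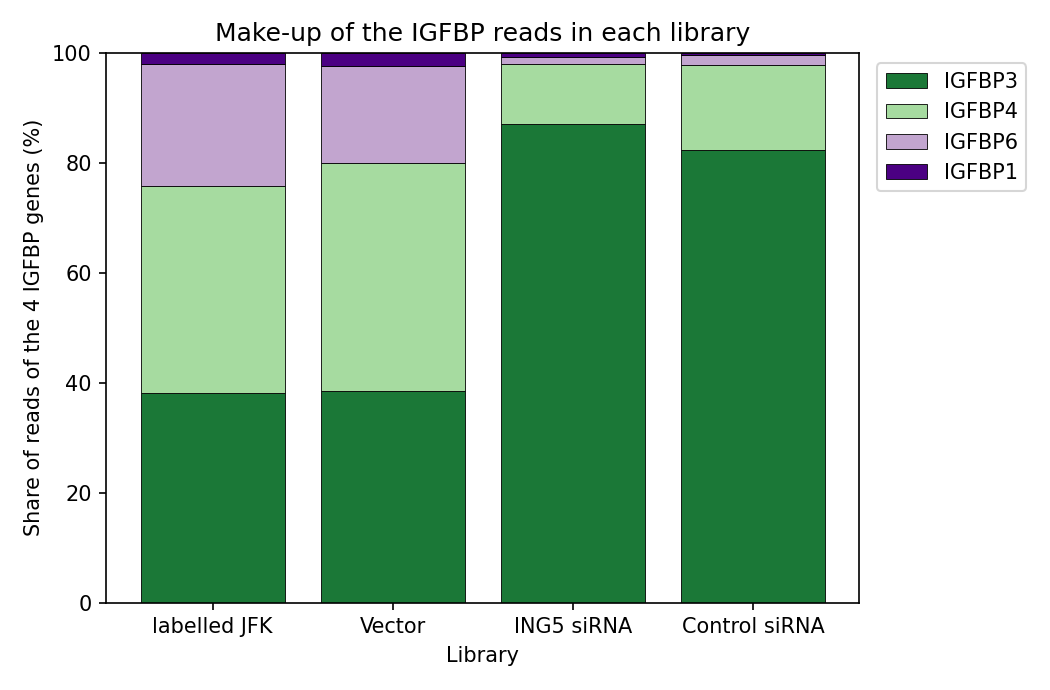
Share of the reads of IGFBP1, IGFBP3, IGFBP4 and IGFBP6 taken by each gene, in percent, as 1 stacked bar per library. IGFBP3 takes 38.2% and 38.4% in the plasmid pair and 87.1% and 82.4% in the siRNA pair, and IGFBP6 shrinks to 1.21% in ING5 siRNA and 1.67% in Control siRNA.

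Both controls were also set side by side. IGFBP3 was 3.66-fold higher in Control siRNA than in Vector (interval 3.45 to 3.88). IGFBP6 was at 16.2% of its Vector level (log2 fold −2.62, interval −2.93 to −2.34) and IGFBP1 at 30.8% (−1.70, interval −2.37 to −1.10). IGFBP4 lay at −0.66 and IRS1 at −1.09, while IGF1R lay at −0.39, INSR at −0.44 and IRS2 at 0.19. IGF2R lay at 0.08 (interval 0.01 to 0.16) and turns to −0.09 when scaled by total counts. In all, 1 member was at least 1.5-fold higher and 4 were lower, where 29.8% of 12012 measured genes were higher and 28.1% lower, so such differences were common among all genes. With total-count scaling 23.5% were higher and 33.6% lower, and the median of all genes moved to −0.12, against 0.05. Experiment, reagent and the way reads were counted cannot be told apart here. Marker sums differed between the controls too. Basal epithelial markers summed to 295 CPM in Control siRNA and 2928 in Vector, of which KRT17 gave 294 in Control siRNA and 2924 in Vector. Endothelial markers summed to 26.1 CPM in Control siRNA and 145 in Vector, mostly CDH5, and placental markers to 1591 in Control siRNA and 3183 in Vector, nearly all ALPP. Epithelial markers summed to 2115 CPM in Control siRNA and 3693 in Vector, and fibroblast markers to 28.9 in Control siRNA and 51.8 in Vector. Within the epithelial list EPCAM went the other way, at 5.11 CPM in Control siRNA and 2.09 in Vector. Hepatocyte markers, nearly all CPS1, summed to 5095 CPM in Control siRNA and 3165 in Vector. Stellate markers summed to 13.3 CPM in Control siRNA and 6.51 in Vector, a difference mostly from RGS5. RGS5 had 92 counts in Control siRNA and 14 in Vector. DES was at 2.72 CPM in Control siRNA and 2.23 in Vector, while LRAT had 5 counts in Control siRNA and 16.74 in Vector. Leukocyte markers summed to 0.217 CPM in Control siRNA and 1.67 in Vector, on few reads. PTPRC had 1 count in Control siRNA and 8 in Vector, and CD14 had 1 in Control siRNA and 4 in Vector. The part of all these marker lists in the differences between the controls was not tested.

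The wider pathway was read through lists of 84 genes. Ligand transcripts were scarce: IGF2 had 1 count in each plasmid library and no row in the siRNA tables, and IGF1 had 3.81 expected counts in the library labelled JFK, 10.2 in Vector, 6 in ING5 siRNA and 2 in Control siRNA. INS and IGFBP5 had no row and are not analysed here. IGFALS, the third partner of the serum complex of IGF and IGFBP3, had at most 2 counts. IGFBP7, a related matrix protein, had 1168 counts in the library labelled JFK against 1017 in Vector (log2 fold 0.22), and 373 in ING5 siRNA against 409 in Control siRNA (−0.12).

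Under ING5 siRNA, 2 of 68 measured genes of these lists were 1.5-fold or more above control (2.94%) and 3 below it (4.41%), close to the shares of all genes. Both higher genes encode stanniocalcins, secreted inhibitors of the PAPPA proteases that cut IGFBP4. STC2 had 758 counts in ING5 siRNA and 476 in Control siRNA (log2 fold 0.69, interval 0.52 to 0.86), and STC1 had 63 in ING5 siRNA against 34 in Control siRNA (0.90, interval 0.28 to 1.55). PAPPA itself had 82 in ING5 siRNA against 74 in Control siRNA (0.16, interval −0.31 to 0.64). The 3 lower genes were PIK3R2, PIK3CA and GRB10. The PI3-kinase regulatory subunit gene PIK3R2 had 347 counts in ING5 siRNA and 669 in Control siRNA (−0.93, interval −1.12 to −0.74). The catalytic subunit gene PIK3CA had 331 in ING5 siRNA against 561 in Control siRNA (−0.74, interval −0.95 to −0.55). GRB10, an adaptor that restrains both insulin and IGF1 receptors, had 305 in ING5 siRNA against 502 in Control siRNA (−0.70, interval −0.91 to −0.49). Among PI3K, AKT and mTOR genes the median was −0.06, with AKT1 at 0.09, AKT2 at 0.11 and the mTOR activator gene RHEB, with 4931 counts in ING5 siRNA against 4020 in Control siRNA, at 0.31.

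FOXO factors and genes known as their targets had a median of −0.12 under ING5 siRNA, with 7 of 10 below 0 and none 1.5-fold apart. Of all measured genes 48.6% lay above 0, while 4.01% were at least 1.5-fold higher and 4.4% lower. FOXO1 had 100 counts in ING5 siRNA and 146 in Control siRNA (log2 fold −0.53, interval −0.91 to −0.15), and FOXO3 had 143 in ING5 siRNA against 205 in Control siRNA (−0.50). The highest of the list were BCL6, a transcriptional repressor, at 0.30 (interval 0.14 to 0.47) and FOXO4 at 0.23, so the list was mixed in direction. Mannose 6-phosphate sorting genes, which serve the lysosomal route of IGF2R, had a median of 0.19, with 6 of 8 above 0. GNPTG, a subunit of the enzyme that makes the sorting tag, had 193 in ING5 siRNA against 139 in Control siRNA (0.49, interval 0.17 to 0.81), and the smaller mannose 6-phosphate receptor gene M6PR had 1507 in ING5 siRNA against 1267 in Control siRNA (0.27). None of the 8 was 1.5-fold apart, which is near the shares of all genes given above.

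In the library labelled JFK, 1 of 66 measured list genes was at least 1.5-fold higher (1.52%) and 0 were lower, where 1.5% of all measured genes lay that far up and 2.07% that far down, a share near the background. The gene was SH2B2, an adaptor of the insulin receptor, with 45 counts in that library against 30 in Vector and an interval that holds 0 (log2 fold 0.60, interval −0.09 to 1.33). LRP1, an endocytic receptor reported to bind IGFBP3, had 952 counts in the library labelled JFK against 736 in Vector (0.40, interval 0.26 to 0.54). HTRA1, a secreted protease, had 533 in that library against 431 in Vector (0.33). The PI3K, AKT and mTOR list had a median of −0.01, from RPS6KB1 at −0.41 to TSC2 at 0.14, and FOXO1 had 93 counts in that library against 94 in Vector (0.01).

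**Figure D4:**
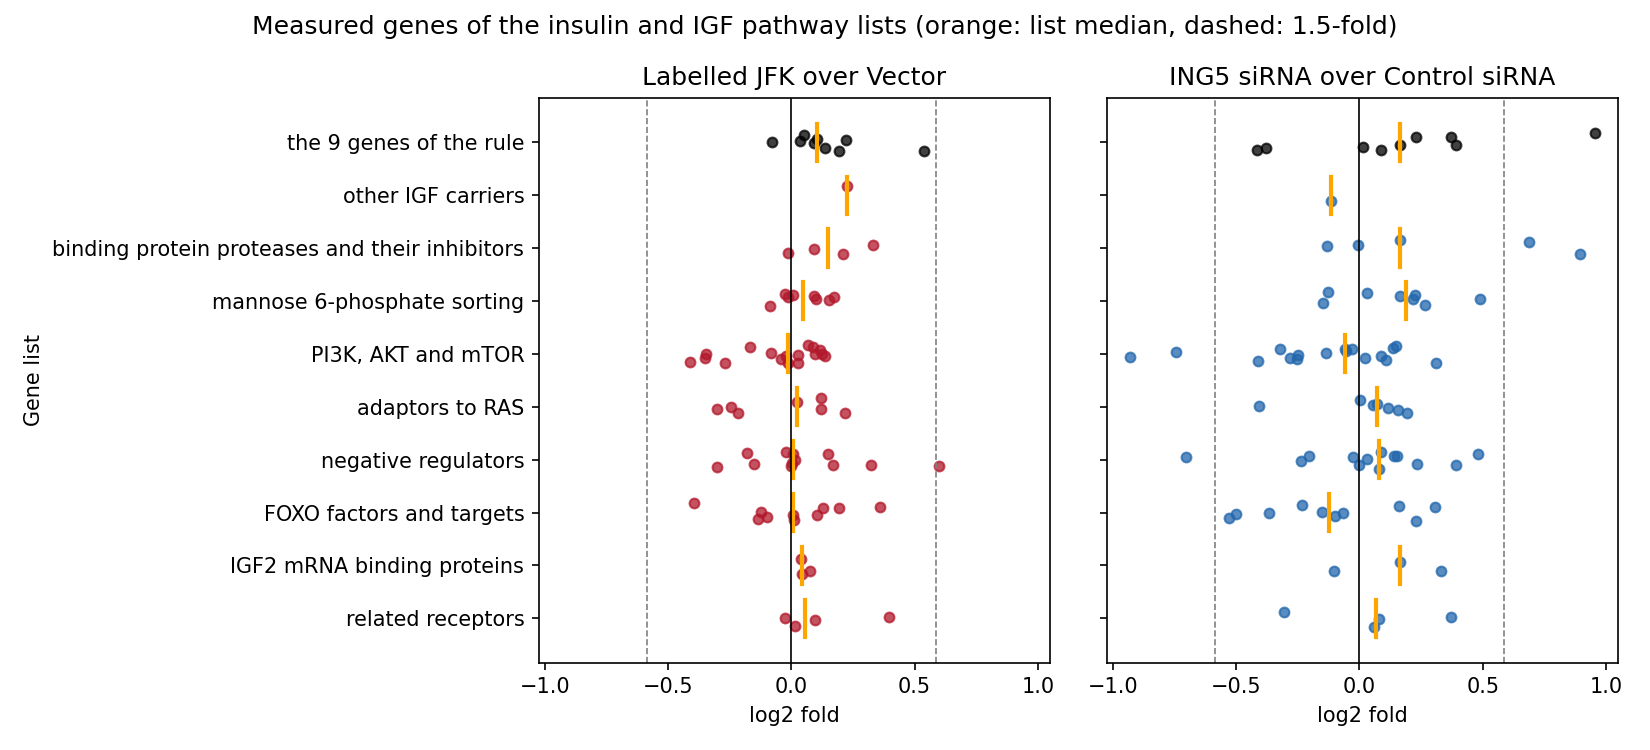
Log2 fold of each measured gene of the lists around the 9 genes, in the library labelled JFK over Vector (left) and ING5 siRNA over Control siRNA (right), with list medians in orange and dashed lines at 1.5-fold. On the right PIK3R2 at −0.93 and STC1 at 0.90 mark the ends of the lists, and on the left all genes but SH2B2 lie within 1.5-fold.

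Genes with the most similar pattern over the 4 libraries were sought for the members farthest above and below control under ING5 siRNA, among 10964 genes with at least 20 counts in every library. Similarity was the Euclidean distance of log2 CPM after centring each gene, over 4 libraries. For IGFBP1 the nearest were CACNG8 at 0.077, YRDC at 0.13 and ANKRD1 at 0.21, where the median gene lay at 1.52. ANKRD1 had 60 counts in the library labelled JFK, 70 in Vector, 45 in ING5 siRNA and 20 in Control siRNA. For IGFBP4 they were BAHCC1 at 0.024, AHDC1 at 0.028 and RAPGEF1 at 0.036, with a median gene at 1.14. With 4 points per gene, these distances are a description only. They also take in the difference between the plasmid and siRNA experiments, so they do not describe the ING5 siRNA comparison alone.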

How the data were processed

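Bulk RNA-seq of 4 libraries, 1 per group, was read, with groups assigned by the transfection each label states. The submitters' processing notes name FastQC, fastp, STAR and DESeq2 and the builds GRCh37 and hg19, while versions, roles and the read counter are not given in the sources. For the plasmid pair the deposited values are expected counts, estimates that can be fractional, and deposited FPKM; for the siRNA pair they are deposited whole counts and deposited RPKM. All 36 counts of the 9 member genes are whole, and each lies within 2.53% of the count its FPKM or RPKM implies. Entrez identifiers were matched to symbols through a RefSeq table of build GRCh38.p14 (17845 of 17963 matched).

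Expected counts were rounded to whole numbers for intervals. TMM factors (log-ratio trim 0.3, intensity trim 0.05) were computed per pair. The tools were numpy 2.4.6, scipy 1.17.1, pandas 2.3.3 and matplotlib 3.10.9 under Python 3.11.15. From the siRNA pair, 2 repeated identifiers were left out, and 1 blank count in the library labelled JFK was passed over. A count of 3 corresponds to 0.415 CPM in the library labelled JFK, 0.418 in Vector, 0.332 in ING5 siRNA and 0.326 in Control siRNA, which sets the precision for scarce transcripts. No test across genes was run. The code was tested on simulated counts with known folds. Alternatives were median-of-ratios, total-count and ribosomal-RNA-free scaling, no filter, a minimum of 100, 5 added, FPKM or RPKM, and whole counts only.

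The members and lists were chosen with earlier results of these data known. The naming rule took all members, FBXO42 and ING5, and a fixed set of pathway genes. It also took the 2 highest and 2 lowest genes of each list by fold, not all of which are reported here. Last came the 3 genes nearest in pattern to the members farthest above and below control under ING5 siRNA. Promoters were taken for members 1.5-fold apart in any comparison, and that of IRS2, which was not, was added after the values were seen. The others shown passed that mark only between the controls. Protein sequences, also named in that rule, were not used here, and 1 gene of the fixed set is not reported here.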

Additional observations from a re-analysis of the deposited data

How the results depend on the processing

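Depth limits IRS1 and IGFBP1 most, with 25 to 54 and 30 to 86 counts. Each member's fold was recomputed under 8 alternatives, giving 70 values for each comparison. In the library labelled JFK over Vector and in ING5 siRNA over Control siRNA all 70 stayed within the counting interval. Part of these values could not move. The filter settings leave a member's fold as it is, and whole counts only leaves the siRNA pair unchanged, since all its counts are whole. The sign turned in 2 for the library labelled JFK over Vector, both INSR, and in 0 for ING5 siRNA over Control siRNA. The members' median log2 fold ran from 0.06 to 0.10 for the library labelled JFK over Vector, from 0.15 to 0.18 for ING5 siRNA over Control siRNA and from −0.60 to −0.39 for Control siRNA over Vector. At a mean count of at least 100, 0 members were 1.5-fold apart under ING5 siRNA, because IGFBP1 was no longer measured, and 3 between the controls, because IGFBP1 and IRS1 were not. Between the controls 16 of 70 values left the counting interval, and IGF2R turned sign in 4, at −0.09 with total-count scaling, −0.06 by FPKM and RPKM and −0.01 with whole counts only. INSR passed 1.5-fold there with total-count scaling, at −0.60. Of 16 shares of binding protein reads, 14 moved beyond their interval per length, by construction of the unit. No paired analysis was possible because each group held 1 library, and no library could be left out.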

Other observations

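Between the controls of the separate experiments, 2 of 3 genes for IGF2 mRNA binding proteins and 4 of 7 for adaptors to RAS stood at least 1.5-fold higher in Control siRNA than in Vector, and none of either list that much lower. Other lists differed too. Of related receptor genes 3 of 4 were that much higher and none lower. Of PI3K, AKT and mTOR genes 7 of 17 were higher and 3 lower, and of mannose 6-phosphate sorting genes 0 of 8 were higher and 3 lower. IGF2BP2, which binds and stabilises growth-related transcripts, had 855 counts in Control siRNA and 208 in Vector (log2 fold 1.84, counting interval 1.62 to 2.07), and IGF2BP3 had 1435 in Control siRNA against 417 in Vector (1.59). Among the adaptors were PTPN11, for the phosphatase SHP2, with 3368 counts in Control siRNA against 1006.01 in Vector (1.55, interval 1.44 to 1.65) and SOS1, a RAS activator, with 847 in Control siRNA against 260 in Vector (1.51). STC2, higher again under ING5 siRNA, had 476 counts in Control siRNA and 84 in Vector (2.30, interval 1.97 to 2.66). GRB14, an inhibitor of the insulin receptor kinase, had 101 counts in Control siRNA against 18 in Vector (2.26), whereas its relative GRB10 had 502 in Control siRNA against 916 in Vector (−1.06). Over all 67 measured pathway genes, 24 were at least 1.5-fold higher and 15 lower, or 35.8% and 22.4%, where 29.8% and 28.1% of all measured genes were. Experiment and reagent cannot be told apart in these values.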
